A study of Mus musculus with 3 samples.

Results

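The 8 genes described here are the nuclear genes Cox4i1, Cox4i2, Cox6a1, Cox6a2, Cox7a1, Cox7a2, Cox8a and Cox8b, which form 4 pairs of alternative subunits of cytochrome c oxidase. They were chosen by symbol, as the tissue isoforms of nuclear subunits, and all 8 were found among the 20937 genes of the deposited count table. RNAseq had been performed on the whole incisor enamel organ, the epithelium that forms enamel, of mice 4 weeks old, to compare Stim1 cKO with its controls. There were 3 libraries, with 1 library per genotype. The Stim1 cKO mouse was Stim1 fl/fl Cre+, the Stim1 HT mouse was Stim1 fl/wt Cre+ and served as the first control, and the Stim1 Ctrl mouse was Stim1 fl/fl Cre- and served as the other control. All 3 mice therefore carried at least 1 floxed Stim1 allele, and Stim1 cKO and Stim1 HT also carried the AmelX-iCre transgene. That transgene is driven by the amelogenin promoter, so the deletion is aimed at ameloblasts and not at the other cells of the dissected tissue. As no genotype was replicated, the variation among mice of the same genotype is not known, and no difference between libraries given here has a replicate check.

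Cytochrome c oxidase, complex IV of the mitochondrial respiratory chain, passes electrons from cytochrome c to oxygen. Its catalytic core is encoded by the mitochondrial genome, and the surrounding subunits, encoded in the nucleus, tune its activity and stability. For several of these subunits mammals hold a ubiquitous isoform, often called the liver type, and an isoform of contracting muscle, often called the heart type. Cox6a2, Cox7a1 and Cox8b are the muscle isoforms of subunits 6A, 7A and 8, and Cox7a1 and Cox8b are also used by brown adipocytes. Cox6a1, Cox7a2 and Cox8a are their ubiquitous counterparts. Cox4i1 is the ubiquitous form of subunit 4, the first nuclear subunit to join the core. Its partner Cox4i2 is grouped with the muscle isoforms below for brevity only. It is best known from lung and from the pericytes of small vessels, where it takes part in the response to low oxygen.

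The isoforms of a pair differ enough in sequence for their reads to be told apart. Between the coding sequences of GENCODE M21, base identity was 69.0% for Cox4i2 and Cox4i1, 64.6% for Cox6a2 and Cox6a1, 65.4% for Cox7a1 and Cox7a2, and 55.7% for Cox8b and Cox8a. The longest run of bases that the transcripts of each pair shared is printed to show how short it was beside a sequencing read.
Cox4i2 and Cox4i1, 14 bases: gaatggaagacagt
Cox6a2 and Cox6a1, 12 bases: accaagcccttc
Cox7a1 and Cox7a2, 12 bases: tgaaaggcgggg
Cox8b and Cox8a, 11 bases: tggttccagca
For each gene, the coding sequence held by most of its coding transcripts was used, or the longest where several tied. Other annotated forms of a gene can differ in length. The proteins encoded by the sequences used were 172 and 169 residues long for subunit 4, 97 and 112 for subunit 6A, 89 and 83 for subunit 7A, and 70 and 69 for subunit 8, with the muscle isoform first. At an identity of at least 90% over a read length or more, Cox6a1 had a near-identical copy in the transcribed pseudogene AC148174.2, with 92.7% identity over 496 bases. That pseudogene is not listed in the count table, so the Cox6a1 counts are uncertain to the extent that reads were split with it. Cox4i1 shared 156 bases at 91.0% identity with Gm20394, which held 3, 4 and 3 counts in Stim1 cKO, Stim1 HT and Stim1 Ctrl. No such copy was found for the other 6 members.

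The members lie on 6 chromosomes, and 3 of the 4 muscle isoforms lie on chromosome 7. In GENCODE M21 on GRCm38, the subunit 4 genes are Cox4i1 at chr8:120668222-120674207 and Cox4i2 at chr2:152754173-152765037, both on the plus strand. Cox6a1 is at chr5:115345642-115348981 and Cox6a2 at chr7:128205435-128206387, both on the minus strand. Cox7a1 is at chr7:30184144-30186078 on the plus strand and Cox7a2 at chr9:79755361-79759878 on the minus strand. Cox8a is at chr19:7215153-7217616 and Cox8b at chr7:140898945-140900446, both on the minus strand. The exons of Cox4i1 overlap those of Emc8 on the opposite strand over 154 bases, and those of Cox6a2 overlap Itgad on the opposite strand over 70 bases. Emc8 held 994, 891 and 967 counts and Itgad 6, 1 and 7 counts in Stim1 cKO, Stim1 HT and Stim1 Ctrl. Whether strand was used in the counting is not given in the sources used here, so reads of the shared bases cannot be assigned with certainty.

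The promoters of the subunit 8 pair are printed because this pair differed between the libraries in its isoform ratio and because both starts coincide in RefSeq and GENCODE. Each line gives the 250 bases before the start site from RefSeq on GRCm38.p6, 5′ to 3′ on the minus strand, which is the strand of both genes. Capitals mark CAGCTG in Cox8b, a motif of the E-box type that is bound by muscle regulatory factors, and in Cox8a the first 4 bases of TTCCGG, which runs on past the start and is CCGGAA, an ETS-type motif, on the other strand.
Cox8b, chr7:140900447-140900696: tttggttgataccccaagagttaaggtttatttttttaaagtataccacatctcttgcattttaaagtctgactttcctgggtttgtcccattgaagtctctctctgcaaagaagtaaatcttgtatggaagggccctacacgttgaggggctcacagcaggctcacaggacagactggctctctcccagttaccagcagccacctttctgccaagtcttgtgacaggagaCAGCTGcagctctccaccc
Cox8a, chr19:7217617-7217866: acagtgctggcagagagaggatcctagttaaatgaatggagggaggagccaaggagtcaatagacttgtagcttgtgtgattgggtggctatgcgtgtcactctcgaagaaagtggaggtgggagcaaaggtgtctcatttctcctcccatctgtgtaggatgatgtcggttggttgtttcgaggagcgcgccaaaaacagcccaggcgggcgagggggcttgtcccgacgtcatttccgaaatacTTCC
The GC content of these windows was 47.2% for Cox8b and 52.8% for Cox8a. Motifs were searched on both strands from 250 bases before to 50 bases after the start. Of the 8 members, 5 have a promoter in the RefSeq table, namely Cox6a1, Cox7a1, Cox7a2, Cox8a and Cox8b. Among these 5, CAGCTG was found only in Cox8b, starting 19 bases before and 17 bases after the start, and 16.3% of 32851 promoters hold it. CANNTG, which includes CAGCTG, was found in Cox7a1, Cox7a2, Cox8a and Cox8b and in 72.3% of all promoters. CCGGAA was found in the 3 ubiquitous members Cox6a1, Cox7a2 and Cox8a, in neither Cox7a1 nor Cox8b, and in 14.9% of all promoters. TATAAA was found only in Cox8b, 5 bases after the start, and in 13.6% of all promoters. The NRF1 motif, named for nuclear respiratory factor 1, was found only in Cox6a1, 162 bases before the start, and in 0.971% of all promoters. The MEF2 motif was found in none of the 5 and in 3.19% of all promoters. A match describes these letters only.

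The libraries held 21496136 counts in Stim1 cKO, against 20216507 for Stim1 HT and 28265960 for Stim1 Ctrl. All levels are TMM-scaled CPM, that is, counts set relative to the library size, and a level per kb is that value divided by the exon length of the gene in kilobases. The detection limit was set at a count of 3, worth 0.124 to 0.152 CPM. Stim1, the targeted gene, was at 72.8 CPM in Stim1 cKO, against 129 CPM for Stim1 HT and 186 CPM for Stim1 Ctrl. In the tests described below, its adjusted p was 0.106 in edgeR and 0.0207 in DESeq2, so neither tool called it. How far the deletion accounts for these levels was not tested. The libraries also stood apart in markers of other cells. The 6 photoreceptor markers examined were all above both controls in Stim1 cKO, with summed levels of 1005, 1.73 and 1.28 CPM in Stim1 cKO, Stim1 HT and Stim1 Ctrl. Ameloblasts are the cells named in the labels. The 8 ameloblast markers summed to 4477 CPM in Stim1 cKO, against 31540 CPM for Stim1 HT and 23270 CPM for Stim1 Ctrl, with 4 of them, Amelx and Ambn included, lower and 3 higher in Stim1 cKO than both controls. The part of these differences in the results below was not tested.

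Per exon length, the ubiquitous isoform had the higher level in every pair and every library. Cox4i1 had 7694 counts in Stim1 cKO, against 14395 for Stim1 HT and 12125 for Stim1 Ctrl, or levels of 318, 731 and 471 CPM. Exact 95% Poisson intervals of these levels were 311 to 325, 719 to 743 and 463 to 479 CPM and cover counting error only. The level was thus lowest in Stim1 cKO and highest in Stim1 HT, with log2 ratios of -1.20 for Stim1 cKO to Stim1 HT, -0.57 for Stim1 cKO to Stim1 Ctrl and 0.63 for Stim1 HT to Stim1 Ctrl. Cox7a2 had the same order, with 2355, 3732 and 3222 counts and levels of 97.3, 189 and 125 CPM in Stim1 cKO, Stim1 HT and Stim1 Ctrl. For Cox7a2 the log2 ratios of Stim1 cKO were -0.96 with Stim1 HT and -0.36 with Stim1 Ctrl as the control. Its controls differed by a log2 ratio of 0.60. In Cox4i1 and Cox7a2 the gap between the controls thus exceeded that from Stim1 cKO to Stim1 Ctrl. Comparisons of Stim1 cKO with either control share the Stim1 cKO library, here and below.

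Cox6a1 and Cox8a did not follow that order. Cox6a1 had 4024, 3089 and 3170 counts in Stim1 cKO, Stim1 HT and Stim1 Ctrl, which gave levels of 166, 157 and 123 CPM. The Stim1 cKO library was the highest of the 3 for Cox6a1, with log2 ratios of 0.08 to Stim1 HT and 0.43 to Stim1 Ctrl. Cox8a had 4092, 3949 and 3495 counts, and its level of 169 CPM in Stim1 cKO lay between the 200.4 CPM of Stim1 HT and the 136 CPM of Stim1 Ctrl. In each of the 4 ubiquitous isoforms the Stim1 HT level was above the Stim1 Ctrl level, by log2 ratios of 0.35 to 0.63.

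The muscle isoforms Cox6a2, Cox7a1 and Cox8b were each lowest in Stim1 cKO, while Cox4i2 was not. Cox6a2 had 1166 counts in Stim1 cKO, against 2325 for Stim1 HT and 2468 for Stim1 Ctrl, and levels of 48.2, 118 and 95.9 CPM. The 95% intervals for counting error were 45.4 to 51.0, 113 to 123 and 92.1 to 99.7 CPM, so the Stim1 cKO level lay well below both controls, at log2 ratios of -1.29 to Stim1 HT and -0.99 to Stim1 Ctrl. Cox8b had 1007, 2037 and 1661 counts in the same order, and its levels were 41.6, 103 and 64.5 CPM. Its log2 ratios were -1.31 to Stim1 HT and -0.63 to Stim1 Ctrl. Cox7a1 had 776, 1284 and 1073 counts and levels of 32.0, 65.2 and 41.7 CPM. For Cox7a1 the gap from Stim1 cKO to Stim1 Ctrl, a log2 ratio of -0.38, was smaller than the gap of 0.64 between the controls. For Cox8b too, the gap to Stim1 Ctrl was smaller than that between the controls, a log2 ratio of 0.68. Cox4i2 had 213, 233 and 199 counts, and its level of 8.80 CPM in Stim1 cKO lay between those of Stim1 HT, at 11.8 CPM, and Stim1 Ctrl, at 7.73 CPM. The 95% intervals for counting error were 7.65 to 10.1 CPM in Stim1 cKO and 6.69 to 8.88 CPM in Stim1 Ctrl, and these overlap.

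**Figure D1:**
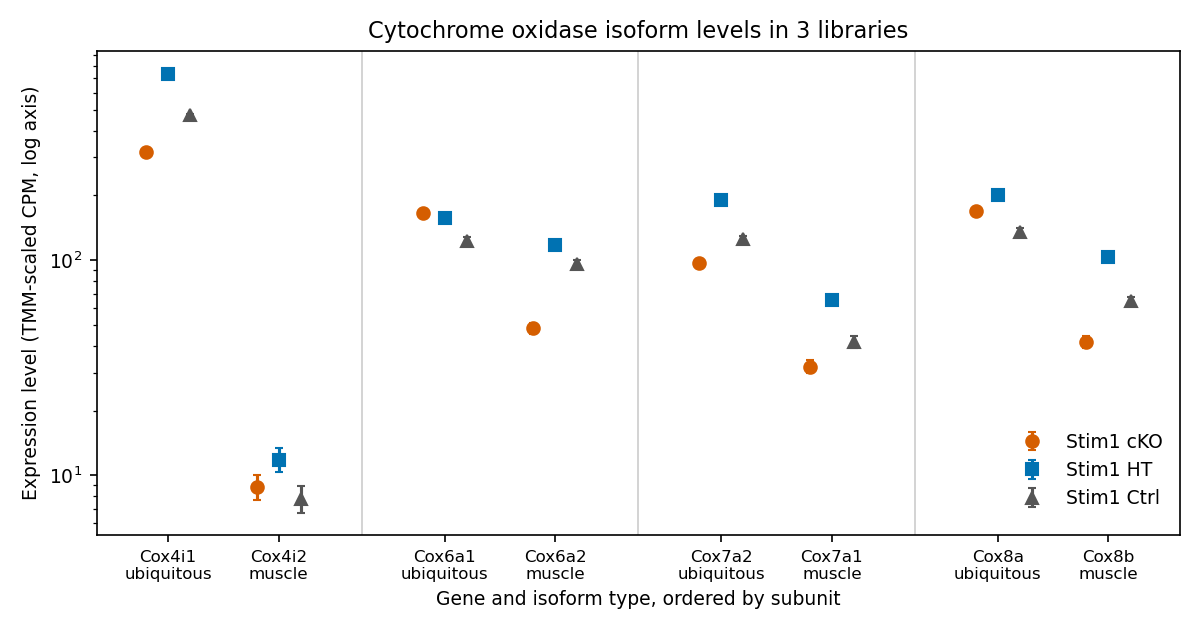
Expression level of each of the 8 genes in each library, in TMM-scaled CPM on a log axis, with the ubiquitous isoform left of the muscle isoform for each subunit. Points are the 3 single libraries and bars are exact 95% Poisson intervals that cover counting error only. The Stim1 cKO point is the lowest for Cox4i1, Cox6a2, Cox7a2, Cox7a1 and Cox8b, lies between the controls for Cox8a and Cox4i2, and is the highest for Cox6a1.

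Compared per kb of exon, the order of the 8 levels was Cox4i1, Cox8a, Cox8b, Cox6a1 and then the remaining members in both controls. Stim1 HT was at 471 CPM per kb for Cox4i1, 324 for Cox8a, 287 for Cox8b and 223 for Cox6a1, and Stim1 Ctrl was at 304, 219, 179 and 175 CPM per kb. In Stim1 Ctrl the levels of Cox8b and Cox6a1 were close neighbours, whereas the levels in Stim1 cKO were led by Cox8a with 273 CPM per kb, followed by Cox6a1 with 237 and Cox4i1 with 205, and Cox8b held the fourth place with 116. Cox6a2 was at 70.8, 174 and 141 CPM per kb in Stim1 cKO, Stim1 HT and Stim1 Ctrl. Cox7a2 was at 103, 201 and 133 CPM per kb and Cox7a1 at 59.9, 122 and 77.9 CPM per kb. Cox4i2 was the lowest of the 8 in every library, at 11.2, 15.0 and 9.81 CPM per kb. How near Cox8b stands to Cox8a depends on the length used, since the ratio of Cox8b to Cox8a in Stim1 HT and Stim1 Ctrl was 0.887 and 0.817 per exon length but 0.545 and 0.502 per coding length.

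The muscle-to-ubiquitous ratio within each library was taken next, as it depends neither on the depth of the library nor on the scaling between libraries. It was lower in Stim1 cKO than in both controls for subunits 6A and 8, was nearly the same in all 3 libraries for subunit 7A, and was higher in Stim1 cKO for subunit 4. In bulk tissue, fewer cells of a type and less RNA per cell cannot be told apart, and the ratio shares this limit. Intervals below are exact 95% intervals for counting error, Clopper-Pearson for the share of a pair's counts and conditional on the totals for a ratio between libraries. They compare libraries, not genotypes.

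For subunit 6A, Cox6a2 held 22.5% (95% interval 21.3 to 23.6) of the counts of its pair in Stim1 cKO. The share was 42.9% (41.6 to 44.3) in Stim1 HT and 43.8% (42.5 to 45.1) in Stim1 Ctrl, so the controls overlapped and Stim1 cKO stood far below both. Per exon length, the ratio of Cox6a2 to Cox6a1 was 0.299 in Stim1 cKO, against 0.777 for Stim1 HT and 0.804 for Stim1 Ctrl. The ratio in Stim1 cKO was 0.385 times that in Stim1 HT, a log2 difference of -1.38 (-1.50 to -1.25), and 0.372 times that in Stim1 Ctrl, a log2 difference of -1.43 (-1.55 to -1.30). The controls differed by -0.05 (-0.16 to 0.06) on the log2 scale. Cox6a2 was lower and Cox6a1 was slightly higher in Stim1 cKO, so both isoforms moved the ratio the same way. For Cox6a1 beside Stim1 HT the rise was small, a log2 ratio of 0.08. The 95% intervals of Cox6a1, 161 to 171 CPM in Stim1 cKO and 151 to 162 CPM in Stim1 HT, overlap slightly. Such an overlap does not by itself place the rise within counting error.

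For subunit 8, Cox8b held 19.7% (18.7 to 20.9) of the counts of its pair in Stim1 cKO, 34.0% (32.8 to 35.2) in Stim1 HT and 32.2% (30.9 to 33.5) in Stim1 Ctrl. Per exon length the ratio of Cox8b to Cox8a was 0.423, 0.887 and 0.817 in these libraries. The ratio in Stim1 cKO was 0.477 times that in Stim1 HT and 0.518 times that in Stim1 Ctrl, with log2 differences of -1.07 (-1.20 to -0.94) and -0.95 (-1.08 to -0.82). The log2 difference between the controls was 0.12 (0.0028 to 0.23), which is small beside the gap of 0.95 from Stim1 cKO to its nearer control but just clears counting error. The Cox8a level in Stim1 cKO lay between those of the controls. Beside Stim1 HT, the log2 ratio was -1.31 for Cox8b and -0.25 for Cox8a. Beside Stim1 Ctrl it was -0.63 for Cox8b and 0.32 for Cox8a, so there both isoforms moved the ratio the same way.

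For subunit 7A, the share of Cox7a1 was 24.8% (23.3 to 26.3) in Stim1 cKO, against 25.6% (24.4 to 26.8) for Stim1 HT and 24.98% (23.7 to 26.3) for Stim1 Ctrl. All 3 intervals overlap. The ratio of Cox7a1 to Cox7a2 per exon length was 0.581, 0.607 and 0.588. The log2 difference was -0.06 (-0.21 to 0.09) between Stim1 cKO and Stim1 HT and -0.02 (-0.17 to 0.14) between Stim1 cKO and Stim1 Ctrl, so a difference of the size seen for subunits 6A and 8 lies outside these intervals. Levels of both isoforms were lower in Stim1 cKO than in both controls, by nearly the same log2 ratio.

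For subunit 4, Cox4i2 held 2.69% (2.35 to 3.07) of the counts of its pair in Stim1 cKO, 1.59% (1.40 to 1.81) in Stim1 HT and 1.61% (1.40 to 1.85) in Stim1 Ctrl. Per exon length the ratio of Cox4i2 to Cox4i1 was 0.0545, 0.0318 and 0.0323, so Cox4i1 was by far the main form in every library. The ratio in Stim1 cKO was 1.71 times that in Stim1 HT and 1.69 times that in Stim1 Ctrl, with log2 differences of 0.77 (0.50 to 1.05) and 0.75 (0.47 to 1.04). The controls differed by -0.02 (-0.30 to 0.26). This difference came with a lower level of Cox4i1 in Stim1 cKO, while Cox4i2 lay between the controls. It rests on 199 to 233 counts of Cox4i2 per library and on Cox4i1 counts with the overlap with Emc8 described above.

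**Figure D2:**
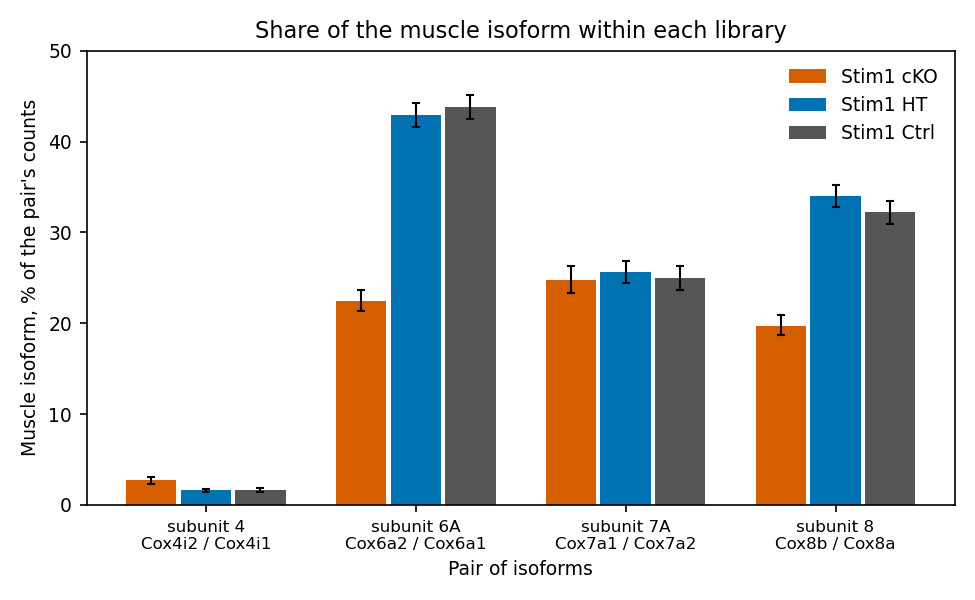
Share of the muscle isoform in the counts of its pair, in percent, for the 4 subunits and 3 libraries. Bars are single libraries and error bars are exact 95% Clopper-Pearson intervals for counting error. Stim1 cKO is at 22.5% against 42.9% and 43.8% for subunit 6A and at 19.7% against 34.0% and 32.2% for subunit 8, while the bars of subunit 7A are level.

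Summed over the 4 pairs, the muscle isoforms held 14.8% of the counts in Stim1 cKO, against 18.9% for Stim1 HT and 19.7% for Stim1 Ctrl. Without subunit 4, whose partner Cox4i1 has the highest count, the shares were 22.0% (21.3 to 22.7), 34.4% (33.7 to 35.1) and 34.5% (33.7 to 35.2). The controls thus had nearly equal summed shares although their summed levels differed. The muscle isoforms of all 4 pairs summed to 131 CPM in Stim1 cKO, against 298 CPM for Stim1 HT and 210 CPM for Stim1 Ctrl, and the ubiquitous isoforms to 750.1, 1277 and 855 CPM.

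The same ratio was taken for 9 other pairs of a muscle-type and a ubiquitous-type metabolic isoform, to set the cytochrome oxidase pairs beside them. In Stim1 cKO the ratio was lower than in both controls for 9 of these 9 pairs and for 3 of the 4 cytochrome oxidase pairs. Subunit 7A is counted among these 3, although its log2 gap to the nearer control, 0.0153, was below the 0.0470 between the controls. The median log2 difference of Stim1 cKO from the mean of both controls was -1.37 over the 9 pairs and -0.52 over the 4 cytochrome oxidase pairs. Among the 9, Slc25a4 to Slc25a5, the muscle and ubiquitous forms of the mitochondrial ADP/ATP carrier, had the highest difference of -0.69, and Ckm to Ckb, the muscle and brain forms of creatine kinase, had the lowest of -2.34. Subunit 6A, with a difference of -1.40, and subunit 8, with -1.01, lay within that range, whereas subunit 7A with -0.04 and subunit 4 with 0.76 lay above it. In the controls the pairs differed too. Between Stim1 HT and Stim1 Ctrl the median log2 difference was -0.41 over the 9 pairs and 0.01 over the 4 cytochrome oxidase pairs.

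**Figure D3:**
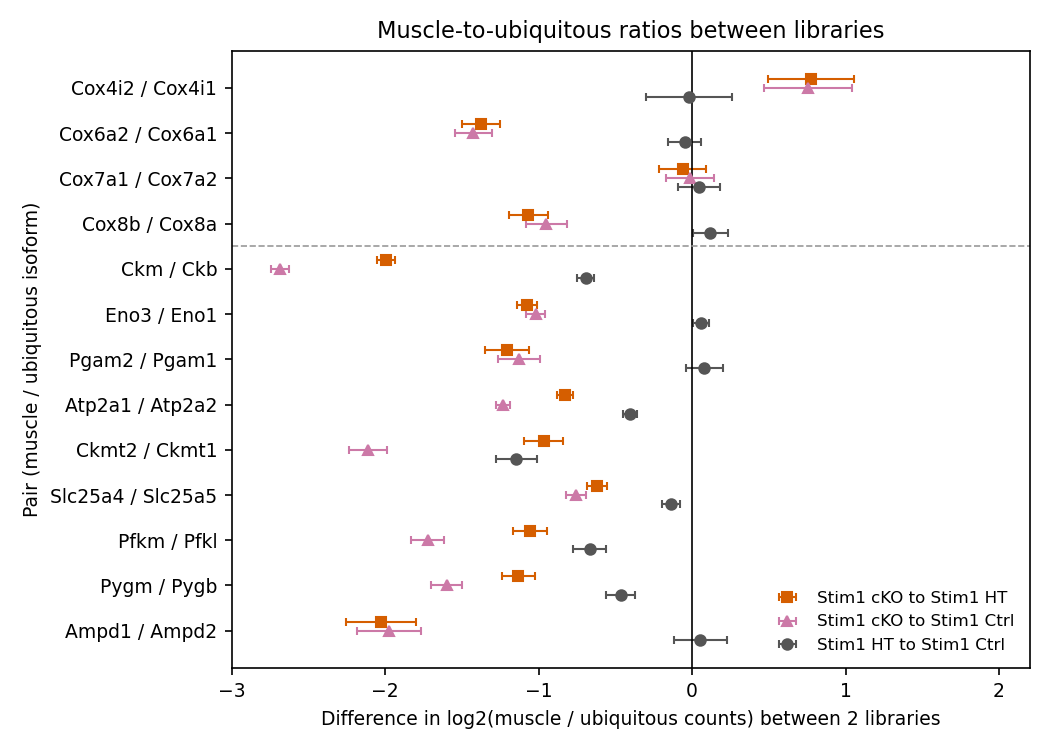
Log2 difference between libraries in the muscle-to-ubiquitous count ratio, for the 4 cytochrome oxidase pairs above the dashed line and 9 other metabolic pairs under it. Points compare a pair of libraries and bars are 95% intervals for counting error only. Subunits 6A and 8 lie between -1.43 and -0.95 in Stim1 cKO against either control, subunit 7A lies at 0 within its intervals, and subunit 4 lies on the positive side.

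Stim1 cKO was then tested against both controls together over the 18702 genes with enough counts, using the quasi-likelihood test of edgeR, adjusted by Benjamini-Hochberg, and calling genes at an adjusted p under 0.01 and a fold change over 2. None of the 8 members was called. Of all genes tested, 0.0749% were called, all of them higher in Stim1 cKO, and 2 members, Cox6a2 and Cox8b, had an unadjusted p under 0.05, as did 31.9% of all genes. DESeq2 with the same thresholds called 1 member, Cox6a2, and 9.54% of all genes in either direction, or 4.34% as lower. The only spread that either test can use is that between the 2 controls, whose genotypes differ.

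Cox6a2 had the lowest log2 fold change of the members in edgeR, -1.15, with an adjusted p of 0.0694. DESeq2 gave -1.18 ± 0.349 (SE) with an adjusted p of 0.00680, whereas the adjusted p of Cox6a2 in edgeR ran from 0.0367 with no filter to 0.118 with library size only, so no edgeR setting shared the call. Cox8b had an edgeR log2 fold change of -1.01 (adjusted p = 0.140), with adjusted p-values from 0.0643 in DESeq2 to 0.263 in edgeR with library size only. In edgeR, Cox4i1 was at -0.92 with an adjusted p of 0.200, Cox7a1 at -0.74 with 0.215 and Cox7a2 at -0.69 with 0.247. For the remaining members, the edgeR log2 fold changes were 0.25 for Cox6a1, 0.01 for Cox8a and -0.15 for Cox4i2, with adjusted p-values of 0.594, 0.989 and 0.840. The direction of Cox8a and of Cox4i2 depends on the processing. Cox8a was at -0.02 in DESeq2 and at -0.25 without Stim1 Ctrl. Cox4i2 was at 0.17 without Stim1 HT, and at 0.0957 when counts were scaled by library size alone, a scaling under which the median of all genes was 0.25. Of the 8 members, 5 were lower in Stim1 cKO than in both controls, against 42.1% of all genes tested, 1 was higher than both, against 43.6%, and none was over 2-fold lower than both, against 8.23% of all genes.

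The other genes of the enzyme are given next, from lists that hold all nuclear subunits, the mitochondrial subunits, assembly factors and the electron donors of the enzyme. The counts of each list, here and below, stand beside these shares of all genes. In Stim1 cKO, 42.1% were lower and 43.6% higher than both controls. An unadjusted p under 0.05 in edgeR was found for 31.9%, and DESeq2 called 4.34% as lower. Of 10 other nuclear subunits, 8 were listed, without Cox7b2 and Cox8c. None of the 8 was called by either tool, and none had an unadjusted p under 0.05 in edgeR. Cox5a, Cox5b and Cox6b1 were lower in Stim1 cKO than in both controls, Cox6b2, a form known from testis, was higher than both, and the other 4 lay between. Their median edgeR log2 fold change was -0.31, against -0.01 over all genes, -0.34 over the ubiquitous isoforms and -0.87 over the muscle isoforms. These medians moved with the control used. Set against Stim1 HT alone and Stim1 Ctrl alone, and relative to the median of all genes, they were -0.57 and -0.0087 for the other nuclear subunits, -0.62 and -0.051 for the ubiquitous isoforms, and -1.17 and -0.53 for the muscle isoforms. Cox5a had the lowest level relative to the controls, with 109 CPM in Stim1 cKO, against 202 CPM for Stim1 HT and 158 CPM for Stim1 Ctrl.

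A pair of related paralogs was lower in Stim1 cKO than in both controls. Cox7a2l, a relative of the subunit 7A genes that acts in joining respiratory complexes, was at 82.6, 202 and 122 CPM in Stim1 cKO, Stim1 HT and Stim1 Ctrl, with an edgeR log2 fold change of -0.97 (adjusted p = 0.169). Ndufa4l2, a hypoxia-inducible relative of the subunit Ndufa4, was at 19.5, 38.7 and 46.1 CPM, with an edgeR log2 fold change of -1.12 (adjusted p = 0.0619). Neither passed the threshold.

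The mitochondrially encoded core subunits did not move as a group. mt-Co1, which carries the oxygen-binding site, had 247112, 205663 and 319867 counts in Stim1 cKO, Stim1 HT and Stim1 Ctrl, and an edgeR log2 fold change of -0.16 (adjusted p = 0.834). mt-Co2, which takes electrons from cytochrome c, had 2370, 519 and 613 counts and an edgeR log2 fold change of 1.96 (adjusted p = 0.0189). mt-Co3 had 1582, 464 and 446 counts and an edgeR log2 fold change of 1.68 (adjusted p = 0.0318). DESeq2 called mt-Co2 and mt-Co3 as higher, and edgeR called neither. mt-Co1 held far more counts than mt-Co2 or mt-Co3 in every library. Near-identical copies were sought for the members only and not for these subunits. Whether the counts of mt-Co2 and mt-Co3 capture their transcripts in full was not tested.

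**Figure D4:**
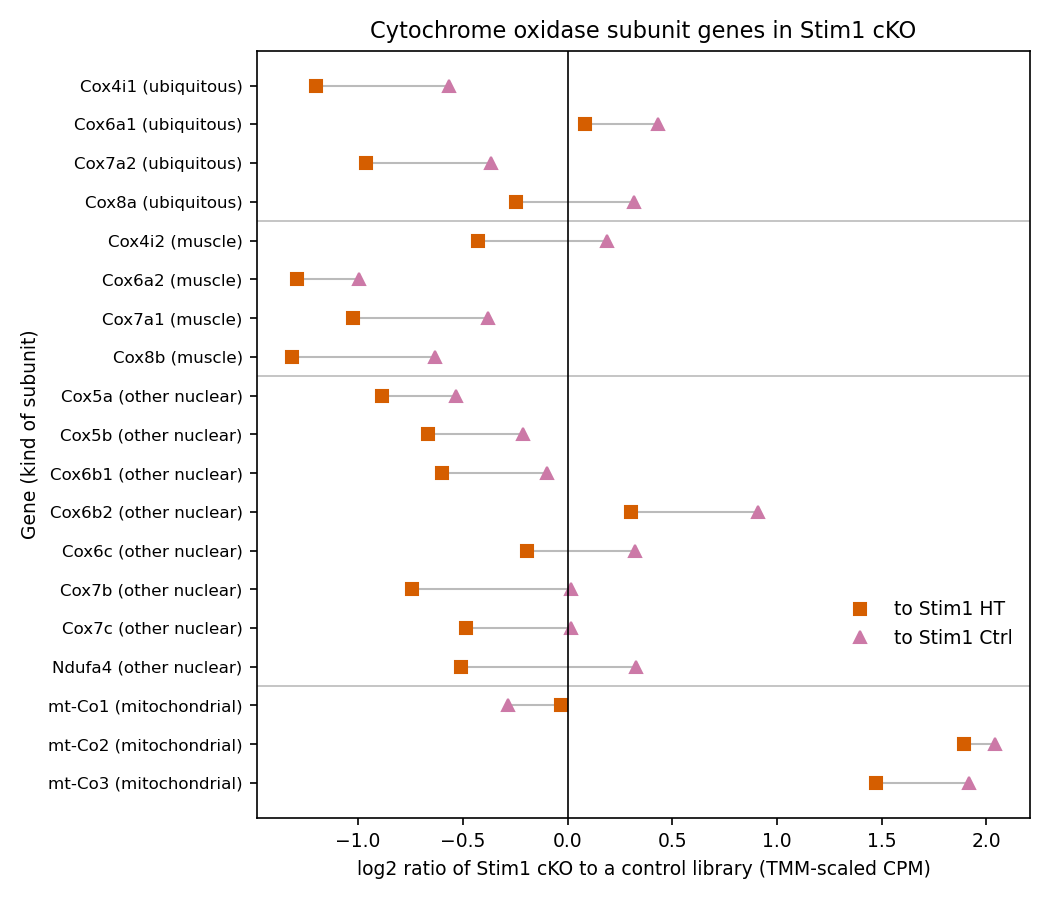
Log2 ratio of the level in Stim1 cKO to that in each control for the 8 members, the 8 other nuclear subunits that were listed and the 3 mitochondrially encoded subunits. Squares compare with Stim1 HT and triangles with Stim1 Ctrl, each from single libraries, and grey lines join the 2 ratios of a gene. Cox6a2 and Cox8b lie at the low end, mt-Co2 and mt-Co3 at the high end.

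Of 23 assembly factors, 22 were listed, none was called by either tool, and 3 had an unadjusted p under 0.05 in edgeR. In Stim1 cKO, 10 were lower and 5 higher than both controls, and the median edgeR log2 fold change was -0.29. Sco2, a copper chaperone for mt-Co2, was at the high end with 115, 20 and 24 counts in Stim1 cKO, Stim1 HT and Stim1 Ctrl and an adjusted p of 0.0633 in edgeR. Cox15, needed for the heme of the enzyme, was at the low end with 19.6, 35.5 and 52.7 CPM and an adjusted p of 0.0883 in edgeR. Among the 10 nuclear genes of complex III and cytochrome c, which supply the electrons, 6 were below both controls in Stim1 cKO and 0 were above both, with a median edgeR log2 fold change of -0.72. DESeq2 called 4 of these 10 as lower and edgeR called none, with 5 of 10 at an unadjusted p under 0.05. Cyc1, the heme-bearing cytochrome c1, was at 107 CPM in Stim1 cKO, against 258 CPM for Stim1 HT and 240 CPM for Stim1 Ctrl, with an adjusted p of 0.0671 in edgeR, and was among the 4 called by DESeq2.

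Genes known to act on Cox4i2 and genes that respond to low oxygen showed no common direction. Rbpj, Chchd2 and Cxxc5 have been tied to the oxygen-responsive element of Cox4i2. Rbpj was lower in Stim1 cKO than in both controls, Cxxc5 was higher than both and Chchd2 lay between. Neither tool called any of them, and none had an unadjusted p under 0.05 in edgeR. Of 10 hypoxia-inducible genes, 5 were lower and 4 higher than both controls, and 4 had an unadjusted p under 0.05 in edgeR. Over all genes tested these shares were 42.1%, 43.6% and 31.9%. Neither tool called any of the 10. Egln3, an oxygen-sensing hydroxylase, was at 26.3, 48.1 and 74.9 CPM in Stim1 cKO, Stim1 HT and Stim1 Ctrl, whereas Slc2a1, a glucose transporter, was at 54.0, 28.9 and 26.6 CPM. Pericyte markers, which mark cells known to hold Cox4i2, were lower than both controls for 6 of 8 genes, with summed levels of 453, 613 and 693 CPM, yet Rgs5, a pericyte signalling regulator, was at 225, 266 and 217 CPM. The part of these cells in the Cox4i2 values was not tested.

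Most markers of skeletal muscle were lower in Stim1 cKO, as were the levels of Cox6a2, Cox7a1 and Cox8b but not that of Cox4i2. Between the controls the order differed, with a median log2 ratio of Stim1 HT over Stim1 Ctrl of 0.63 for the 4 muscle isoforms, -0.33 for the fast, -0.33 for the slow and -0.43 for the developing muscle markers. Of 20 fast muscle markers, 18 were lower in Stim1 cKO than in both controls, with summed levels of 8114 CPM in Stim1 cKO, against 29594 CPM for Stim1 HT and 34620 CPM for Stim1 Ctrl. Ckm, Eno3, Atp2a1 and Pygm are among these markers and also among the metabolic pairs above, so those comparisons share genes. Of 10 slow muscle markers 9 were lower than both controls, with summed levels of 826, 2860 and 4470 CPM, and of 12 developing muscle markers all 12 were, with summed levels of 520, 6633 and 11754 CPM. All of these markers were listed, so none was at 0 in any library. Exceptions were Mb, the oxygen store myoglobin, with 9765, 2912 and 5878 counts in Stim1 cKO, Stim1 HT and Stim1 Ctrl, and Myh4, the heavy chain of the fastest fibres, with 11447, 6258 and 750 counts, both highest in Stim1 cKO, and the calcium-binding Pvalb, which lay between the controls. DESeq2 called 14 of the fast, 9 of the slow and 11 of the developing markers as lower, and edgeR called none of them, with 14, 10 and 12 at an unadjusted p under 0.05. The part of skeletal muscle in the isoform ratios was not tested.

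The log2 fold changes of the muscle isoforms, none of which passed the edgeR test, were set beside those of the muscle markers. The edgeR log2 fold change was further below 0 than that of Cox6a2 for 15 of the 20 fast markers, and likewise for Cox8b, while it was so for 17 of 20 beside Cox7a1 and 18 of 20 beside Cox4i2. All 12 developing muscle markers were lower than each of the 4. The markers that were not further below 0 than Cox6a2 were Ryr1, Ttn, Myh1, Pvalb and Myh4.

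Markers of brown adipocytes, which also use Cox7a1 and Cox8b, were less abundant than those of muscle. Of 5 brown adipocyte markers, 3 were lower in Stim1 cKO than in both controls, with summed levels of 56.5 CPM in Stim1 cKO, against 233 CPM for Stim1 HT and 94.4 CPM for Stim1 Ctrl. Ucp1, the uncoupling protein that defines these cells, had 153, 2941 and 782 counts and Cidea, a lipid droplet protein, 185, 763 and 552. The order Stim1 HT, Stim1 Ctrl, Stim1 cKO from high to low was seen in Cox7a1, Cox8b, Cox6a2, Cox4i1 and Cox7a2. Genes of other lists had it too, Amelx, Ambn, Cox5a and Cyc1 among them. The share of all genes with this order was not counted, so these numbers of genes have no background beside them. Of the 5 brown adipocyte markers, Ucp1 and Cidea had this order. The other 3 markers did not have it, as Elovl3 was at 1.36, 11.01 and 11.54 CPM, Dio2 at 31.1, 25.6 and 19.7 CPM and Prdm16 at 10.1, 8.07 and 11.4 CPM in Stim1 cKO, Stim1 HT and Stim1 Ctrl. Of 8 general adipocyte markers, 7 were lower than both controls, with summed levels of 104, 489 and 271 CPM. Heart muscle markers, of which 5 of 8 were tested, were low, with summed levels of 42.0, 60.2 and 93.3 CPM, 3 lower and 2 higher than both controls, and Nppa and Nppb were not listed. Of 6 smooth muscle markers, 2 were lower and 1 was higher than both controls. The part of adipocytes and of these muscles in the isoform levels was not tested.

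The genes most like each muscle isoform were sought by the Euclidean distance between log2 levels centred over the 3 libraries, among the 14977 genes whose mean count was 50 or more. With 3 libraries many genes come close, so these names are descriptions. Nearest to Cox8b were Coa4, a factor named for cytochrome oxidase assembly, at a distance of 0.00999, then B3gnt8 at 0.0167 and the adult beta-globin Hbb-bt at 0.0374, and 18 genes lay within 0.1. Nearest to Cox6a2 were the ribosomal protein gene Rps2 at 0.0194, Trip13 at 0.0210 and the ATP synthase gene Atp5c1 at 0.0221, with 49 genes within 0.1. Nearest to Cox7a1 were the potassium channel gene Kcns1 at 0.00296, Rpl10a at 0.0135 and Ecel1 at 0.0159, with 43 within 0.1, and nearest to Cox4i2 were Cd55 at 0.0211, Crem at 0.0235 and Prkra at 0.0250, with 98 within 0.1. Among the members themselves, Cox7a1 and Cox7a2 were 0.0459 apart, and Cox8b lay 0.0800 from Cox4i1 but 0.828 from its own partner Cox8a. Cox6a1 and Cox6a2 were 1.14 apart and Cox4i1 and Cox4i2 0.624.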

How the data were processed

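Whole incisor enamel organ RNA was sequenced in 3 libraries, 1 per genotype. The authors aligned the trimmed reads with STAR and deposited read counts for each gene symbol, raw and not normalized. The genome build, annotation, counting tool and strand setting are not given in the sources used here, and the paper names a directional NEBNext kit where the labels name a SMARTER kit, so which kit was used is uncertain. The smallest count listed is 1, so genes with no read in a library are not in the table. Symbols had become dates in 25 rows, which stayed in the tests.

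Counts were tested with edgeR 4.0.16 in R 4.3.3, with TMM factors, filterByExpr (18702 genes kept), the quasi-likelihood test and Benjamini-Hochberg adjustment over all genes, at the thresholds of the paper. The common dispersion was 0.106 with 1 residual degree of freedom. DESeq2 1.42.0, other scalings, filters and thresholds and leaving out either control were the alternatives. Both tests were run on simulated counts in which the controls differed in depth only. Recovery of the median log2 fold change was all that was required there, so the calls and p-values were not checked. Within-library ratios were divided by exon length, with exact 95% intervals from scipy 1.17.1. A count of 3 was the limit of detection. Intervals cover counting error only. Positions and lengths were those of GENCODE M21, in which 20712 symbols were found, and promoters those of RefSeq on GRCm38.p6, neither known to be the build of the counts. Genes named were the 8 members, genes of the lists of pathways and markers, the 3 nearest profiles of each muscle isoform and Stim1. Emc8, Itgad, Gm20394 and AC148174.2 were named for their overlap or similarity with members. The members and lists were chosen with earlier results of these data known.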

Additional observations from a re-analysis of the deposited data

How the results depend on the processing

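With 1 library per genotype, precision is limited by the missing spread between mice and not by depth, since the members had 199 counts or more in every library. No paired analysis was possible because each genotype had 1 library and no replicate pairs existed. The log2 differences in ratio between libraries depend on neither scaling nor length, and those of the 4 pairs kept their direction when 1 was added to the counts and when either control was left out. The levels of the ratios did depend on length. Without division by length, Stim1 cKO, Stim1 HT and Stim1 Ctrl were at 0.0277, 0.0162 and 0.0164 for Cox4i2 to Cox4i1, 0.330, 0.344 and 0.333 for Cox7a1 to Cox7a2, and 0.246, 0.516 and 0.475 for Cox8b to Cox8a. With coding length they were at 0.0337, 0.0197 and 0.0200 for subunit 4, 0.335, 0.869 and 0.899 for subunit 6A, 0.291, 0.304 and 0.294 for subunit 7A, and 0.260, 0.545 and 0.502 for subunit 8.

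The edgeR calls, 14 higher and 0 lower, became 50 with RLE factors (50 higher), 138 with upper-quartile factors (125 higher, 13 lower), 6 with library size only and 6 with a mean of at least 50 counts (6 higher in both), 907 with no filter (687 higher, 220 lower), 1998 with DESeq2 (1089 higher, 909 lower) and 1811 at an adjusted p under 0.05 (1272 higher, 539 lower). The cause was not tested. Among the members, Cox6a2 was called with DESeq2 at a log2 fold change of -1.18. Cox8a changed sign to -0.0246 with no filter and -0.0185 with DESeq2, and lay from -0.25 to 0.30 when a control was left out. Cox4i2 changed sign to 0.0957 with library size only and lay from -0.43 to 0.17 when a control was left out. The other 6 members kept their direction under the alternatives run. The median of all genes moved from -0.01 to 0.12 with upper-quartile factors and to 0.25 with library size only.

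Leaving out a control, the list median minus the median of all genes lay from -1.17 to -0.53 for the muscle isoforms, -0.62 to -0.051 for the ubiquitous isoforms, -0.57 to -0.0087 for the other nuclear subunits, -1.22 to -0.14 for heart muscle, -2.06 to -1.06 for adipocytes, -2.35 to -1.51 for brown adipocytes, -3.41 to -3.03 for developing muscle, -0.43 to -0.18 for the ubiquitous-type metabolic isoforms, -1.15 to -0.93 for the related paralogs, 1.46 to 1.89 for the mitochondrially encoded subunits, -0.28 to -0.0725 for the assembly factors, -0.97 to -0.61 for complex III, -0.41 to 0.0709 for the regulators of Cox4i2, -0.47 to -0.12 for the hypoxia-inducible genes, -1.66 to -1.49 for the muscle-type metabolic isoforms, -1.89 to -1.74 for fast, -3.58 to -3.52 for slow and -0.71 to 0.37 for smooth muscle, -0.88 to -0.63 for pericytes, -0.31 to 0.39 for ameloblasts and 9.79 to 10.1 for photoreceptors. The sign thus turned for the regulators of Cox4i2 (0.0709 without Stim1 HT), smooth muscle (0.37 without Stim1 Ctrl) and ameloblasts (-0.31 without Stim1 Ctrl).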
